A study of Mus musculus with 10 samples.

Results

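Productive Igh clonotypes with a long CDR3 were examined in peritoneal B-1a cells of wild-type and Igll1-/- mice. A clonotype was one row of the Igh tables, and a member was a row listed as productive whose CDR3 held 15 or more amino acids. There were 13532 such clonotypes, beside 168797 other productive clonotypes, out of 195529 Igh clonotypes in 4 libraries. The members were selected on CDR3 length and the listing as productive, both values of these tables, so the lengths themselves are a description.

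The mice were C57BL/6 animals of 6 to 8 weeks, either wild type or Igll1 knockout. Igll1 encodes lambda5, a chain of the surrogate light chain, and without it no pre-B cell receptor forms. B-1a cells from the peritoneal cavity were sorted, and rearranged heavy chains were amplified from their genomic DNA with primers in framework 3 of the V genes and in the J genes. Products of 120 to 280 bp were cut from a gel and sequenced. The comparison asked whether passing by the pre-B cell receptor alters the heavy-chain repertoire of B-1a cells.

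CDR3 of the heavy chain is the stretch where the V, D and J genes are joined, and it often lies at the centre of the antigen-binding site. Its length depends on which D and J genes are joined, on trimming of their ends and on added N nucleotides. Much of the B-1a pool arises before or around birth, when few N nucleotides are added, and B-1a cells are known for short, germline-like CDR3s. The phosphatidylcholine-binding receptors of B-1a cells use IGHV12-3 or IGHV11-2.

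The 4 libraries held 32386 to 58205 clonotypes and 180593 to 285517 reads. Long CDR3s made up 3974 clonotypes of wild-type replicate 1, 3409 of wild-type replicate 2, 2353 of Igll1-/- replicate 1 and 3796 of Igll1-/- replicate 2. There were 2 libraries per genotype, and the labels do not say whether each came from separate mice, so p-values measure only the spread between these libraries. An exact two-sided permutation test of 2 libraries against 2 cannot go below p = 0.333, and an exact sign-flip test over 4 libraries cannot go below p = 0.125.

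The same CDR3 was often listed under several V genes, which bears on every count of clonotypes. The same residues and J gene appeared with more than 1 V listing in 25.1% of the long rows of wild-type replicate 1, 50.7% of wild-type replicate 2, 42.3% of Igll1-/- replicate 1 and 49.6% of Igll1-/- replicate 2. The 13532 rows therefore held fewer distinct CDR3s, namely 3334, 2002, 1562 and 2234 combinations of CDR3 and J gene in the same order of libraries. A single long CDR3 carried up to 11, 53, 51 and 72 V listings. Counts below are of rows, as deposited, and values with each CDR3 and J gene counted once are given, here or with the other processing choices, where a direction or call differs.

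Small variants of large clones were also common. In wild-type replicates 1 and 2, 2.94% and 7.66% of long clonotypes lay 1 residue from a clonotype of the same V and J gene with at least 10 times the reads. In Igll1-/- replicates 1 and 2 the shares were 11.2% and 13.5%. The genotypes did not overlap (exact permutation test, p = 0.333), and among other productive clonotypes the shares were higher in each library, at 10.4% to 17.3%. Whether such variants were separate cells or errors of PCR and sequencing was not tested.

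The share of clonotypes with a long CDR3 did not differ between the genotypes beyond the spread of the libraries. They made up 7.81% of productive clonotypes in wild-type replicate 1 (exact 95% binomial interval 7.58 to 8.05%) and 7.36% in wild-type replicate 2 (7.13 to 7.60%). They made up 7.73% in Igll1-/- replicate 1 (7.43 to 8.04%) and 6.94% in Igll1-/- replicate 2 (6.73 to 7.16%). The means were 7.59% ± 0.316 (SD, n = 2) and 7.34% ± 0.559 (SD, n = 2), and the exact permutation test gave p = 0.667. The intervals treat rows as independent, although many rows repeat a CDR3 and J gene under other V listings, so they can be too narrow even for counting error. Without molecular barcodes, reads also mix cells and PCR copies. With each CDR3 and J gene counted once, the shares were 9.59% and 8.87% in the wild-type replicates. In the Igll1-/- replicates they were 8.96% and 8.68%, so that the genotypes again overlapped.

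By reads the order was different. Long CDR3s took 4.07% and 4.74% of productive reads in the wild-type replicates, and 6.15% and 5.69% in the Igll1-/- replicates. The Igll1-/- mean of 5.92% ± 0.328 (SD, n = 2) lay 1.52 points above the wild-type mean of 4.40% ± 0.471 (SD, n = 2) with no overlap, at the smallest exact permutation p that this design allows (p = 0.333).

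Most long CDR3s were only slightly longer than the limit. Between 84.5% and 89.3% of them had 15 to 17 residues, and the median length was 16 residues for each wild-type replicate and 15 for each Igll1-/- replicate. Over all productive clonotypes the medians were 11 and 10 residues. Just inside the limit, 15-residue CDR3s were 3.86% and 3.32% of productive clonotypes in the wild-type replicates and 3.87% and 3.48% in the Igll1-/- replicates. Just outside it, 14-residue CDR3s were 6.47%, 5.73%, 5.41% and 4.80% in the same order.

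**Figure D1:**
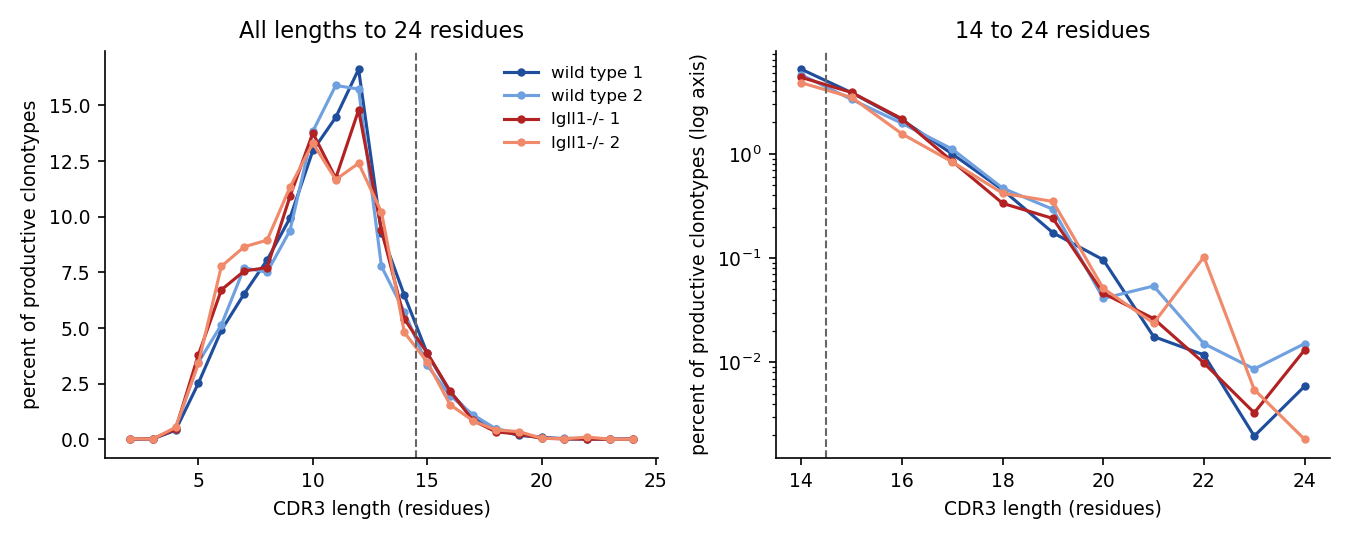
CDR3 length in residues against the percent of productive clonotypes, 1 line per library, with the limit between 14 and 15 residues dashed; the right panel shows 14 to 24 residues on a log axis. The 4 lines fall beyond the limit, with bumps in Igll1-/- replicate 2 at 19 and 22 residues. At 19 residues wild-type replicate 2 lies near it, at 0.294% against 0.349%. Wild-type replicate 1 lies above the others at 20 residues (0.0963%) and wild-type replicate 2 at 21 (0.0540%).

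Each bump in Igll1-/- replicate 2 was made up largely of 1 clone and clonotypes close to it. At 19 residues, 120 of its 191 clonotypes lay within 3 residues of a clone of IGHV1-36, IGHD1-1 and IGHJ4 with 438 reads. At 22 residues, 52 of 56 lay within 3 residues of a clone with 166 reads, under 38 V listings.

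Very long CDR3s were rare and nearly all were seen once. CDR3s of 25 or more residues numbered 40, 35, 51 and 67 in the wild-type and Igll1-/- replicates, of which 40, 35, 50 and 64 had 1 read. The longest had 60, 51, 56 and 60 residues. The J-coded motif of W, G, any residue and G, which normally follows the CDR3, was found inside 15, 3, 13 and 20 of them.

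D gene use set the long CDR3s apart. Genes of the IGHD1 family, among them IGHD1-1 (DFL16.1), one of the longest mouse D genes, were joined in 57.5% and 62.6% of long clonotypes of the wild-type replicates and 55.5% and 63.9% of the Igll1-/- replicates. In other productive clonotypes the family held 29.6%, 29.6%, 30.8% and 32.5%. The single gene IGHD4-1 (DQ52), one of the shortest, was joined in 0.805%, 1.64%, 0.340% and 1.502% of long clonotypes, while its family held 9.24% to 13.6% of the others. Because D-coded residues are part of the length that chose the members, these differences are tied to the rule and are given as a description.

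The share of IGHD1-1 itself was 56.3%, 61.2%, 54.9% and 63.2% of long clonotypes, 8018 in all, against 25.9% to 28.5% of the others. All 4 libraries stood well above their own remaining clonotypes (edgeR log2 fold change 1.12, SE 0.09). In long against other clonotypes, edgeR's quasi-likelihood test called 17 of 22 D genes (77.3%), 2 higher (9.09%) and 15 lower (68.2%). D-coded residues enter the length rule, so these calls describe the selected set and test nothing beyond it. With 1 gene holding over 50% of the long class, the scaling mattered: TMM moved the median D gene by 0.81 and DESeq2's size factors by 1.47 on the log2 scale, and they called 3 higher with 10 lower and 7 higher with 7 lower. IGHD1-1 was higher under each, with log2 fold changes of 1.93 and 2.60.

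IGHD4-1 fell by 3.46 on the log2 scale (edgeR, SE 0.29), a size larger than either shift of scaling, with 153 long clonotypes in all libraries together. IGHD3-1 had 18 long clonotypes, and IGHD5-1 and IGHD6-2 had 2 each. IGHD2-9 was also called higher (edgeR log2 fold change 1.35, SE 0.32), on only 35 long clonotypes, and its fold change was -0.23 among clonotypes of at least 2 reads. The large IGHD2 genes did not pass the test: IGHD2-4 gave a log2 fold change of 0.33, IGHD2-3 gave -0.24 and IGHD2-1 gave -0.29. The last pair turned positive under TMM, at 0.57 and 0.52, and under DESeq2, at 1.24 and 1.20. With each CDR3 and J gene counted once, 20 of the 22 D genes were called, 3 higher and 17 lower, with IGHD2-4 now higher (0.31) and IGHD2-3 and IGHD2-1 now lower (-0.49 and -0.31).

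Between the genotypes, no D gene of the long clonotypes passed the test. Of 12 D genes with enough long clonotypes, edgeR called 0 (0%), with 0 at an unadjusted p under 0.05, a smallest adjusted p of 0.618, and DESeq2 called 0, with 1 unadjusted. IGHD1-1 differed by 0.01 on the log2 scale (SE 0.16, edgeR adjusted p = 0.963). The libraries of the genotypes did not overlap for 4 of the 12 genes (33.3%), named here after their values were seen. Random labels of 2 libraries against 2 would give this share. IGHD2-3 and IGHD6-3 were higher in the Igll1-/- libraries, and IGHD1-2 and IGHD3-2 were lower. IGHD2-3 was 8.103% and 6.101% in the wild-type replicates and 14.07% and 8.114% in the Igll1-/- replicates, so that only Igll1-/- replicate 1 stood apart.

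The IGHD1-1 gene can be read in several frames, and short stretches of the residues show which was used. They are shown because IGHD1-1 was the D gene joined most often in long CDR3s. One frame codes for YGSS and another for TTV. YGSS was present in 33.0% and 38.4% of long CDR3s of the wild-type replicates and in 28.4% and 28.0% of the Igll1-/- replicates, against 8.49% to 9.50% of the others. Both Igll1-/- libraries were below both wild-type libraries, by 7.51 points on average (exact permutation test, p = 0.333). Other CDR3s had the reverse order, at 8.80% and 8.49% against 8.88% and 9.50%. Many long clonotypes lay within 3 residues of 1 of the 3 largest long clones of their library. In Igll1-/- replicate 2 these were 247, 154 and 100, all near clones without YGSS. A further 120 there lay near the 438-read IGHV1-36 clone, which had YGSS. In Igll1-/- replicate 1, 133 lay near a clone with YGSS and 76 and 41 near clones without it. In wild-type replicate 2, 91 and 95 lay near clones with YGSS and 153 near a clone without it. In wild-type replicate 1, 17 and 37 lay near clones with YGSS and 30 near a clone without it. The part of these groups was not tested.

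Within IGHD1-1, long clonotypes kept the genotype order of all long CDR3s. YGSS was in 58.5% and 62.3% of the long IGHD1-1 clonotypes of the wild-type replicates and in 51.5% and 43.7% of the Igll1-/- replicates. TTV was in 21.8%, 21.6%, 28.2% and 20.3% of them, which overlapped. Among all long CDR3s, TTV was present in 12.5%, 13.5%, 15.6% and 13.0%, against 2.94% to 4.54% of the others.

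J gene use of the long CDR3s was led by IGHJ4, which codes for one of the longer J ends. IGHJ4 was joined in 43.6% and 44.6% of long clonotypes of the wild-type replicates and 48.9% and 41.4% of the Igll1-/- replicates, against 15.4% to 18.01% of the others, a difference of 28.3 points ± 4.15 (SD over 4 libraries). IGHJ2 showed the reverse, with 22.3%, 22.1%, 23.1% and 18.5% of long clonotypes against 45.3% to 47.4% of the others. IGHJ3 held 10.3% to 15.98% of long clonotypes and 19.0% to 27.1% of the others. IGHJ1 held 18.2%, 23.0%, 15.3% and 27.1% of long clonotypes and 9.54% to 18.01% of the others.

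All 4 J genes differed from the other clonotypes in 1 direction in every library (100%; exact sign-flip permutation test, p = 0.125), and this too is tied to the length rule. Counted by reads, IGHJ1 reversed, with long below other by a mean of -7.44 points. The genotypes overlapped for every J gene (0% not overlapping; exact permutation test, p = 1 for each).

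**Figure D2:**
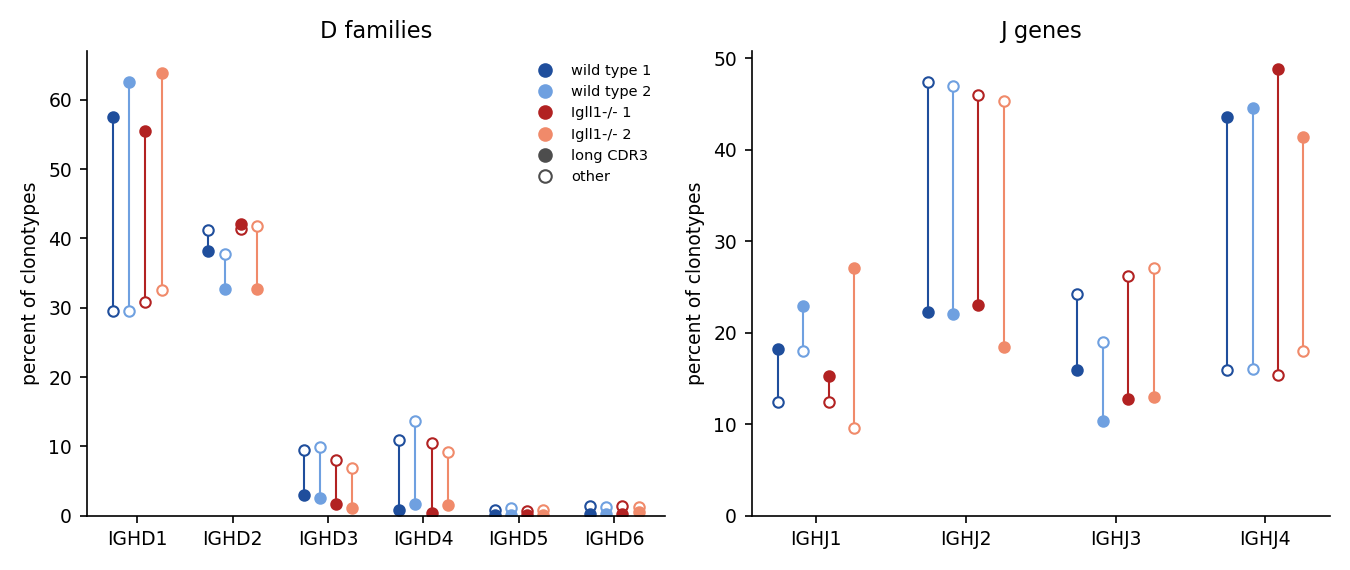
Percent of clonotypes joined to each D family (left) and J gene (right), with filled circles for long CDR3s and open circles for other productive clonotypes of the same library, joined by a line. IGHD1 and IGHJ4 rise in long CDR3s in each library, IGHD4 and IGHJ2 fall, and the 2 genotypes overlap for each J gene.

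The leading combination was IGHD1-1 with IGHJ4. It made up 20.4%, 23.4%, 22.3% and 26.2% of long clonotypes in the wild-type and Igll1-/- replicates, against 3.78% to 5.51% of the others, a difference of 18.7 points ± 1.88 (SD over 4 libraries). IGHD1-1 with IGHJ1 followed, with 14.02%, 15.7%, 9.65% and 18.6% of long clonotypes.

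The J-coded ends were also kept more fully in long CDR3s. Kept J residues are part of the length that chose the members, so this is given as a description. YYAMDY, the end coded by IGHJ4, was whole in 53.0%, 56.2%, 57.6% and 60.5% of long IGHJ4 clonotypes, against 30.7% to 36.05% of other IGHJ4 clonotypes. YFDY of IGHJ2 was whole in 66.0%, 69.9%, 56.2% and 66.9% of long IGHJ2 clonotypes. WFAY of IGHJ3 was whole in 67.6%, 54.5%, 64.7% and 56.7% of long IGHJ3 clonotypes. YWYFDV of IGHJ1 was whole in 39.0%, 52.1%, 57.5% and 52.8% of long IGHJ1 clonotypes. In other IGHJ1 clonotypes it was whole in 38.0%, 41.2%, 34.4% and 35.2%, so that wild-type replicate 1 hardly differed. Both Igll1-/- libraries lay above both wild-type libraries for YYAMDY (exact permutation test, p = 0.333), as they did among other IGHJ4 clonotypes, at 36.05% and 34.4% against 31.4% and 30.7%. They also lay above for YWYFDV (exact permutation test, p = 0.333), but below among other IGHJ1 clonotypes. The genotypes overlapped for YFDY and WFAY.

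The residues of long CDR3s were richer in serine, tyrosine and valine and poorer in alanine, aspartate, phenylalanine and arginine. Serine made up 7.82% and 8.50% of residues in the wild-type replicates and 7.59% and 7.21% in the Igll1-/- replicates, against 5.87% to 6.06% in other CDR3s. Aspartate made up 8.96%, 8.87%, 7.99% and 7.87%, against 9.97% to 11.4%. Of the 20 amino acids, 15 (75%) differed from other CDR3s in 1 direction in all 4 libraries, each at an exact sign-flip permutation p of 0.125 or above.

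The V-coded first and J-coded last residues take a larger share of a short CDR3, and this enters all percentages of residues. Per residue, charged amino acids were less frequent in long CDR3s of each library, with arginine and lysine at a mean of 8.30% against 9.44% and aspartate and glutamate at 10.05% against 11.5%. Counts per CDR3 rise with length, which chose the members, and are given as a description. Arginine and lysine together averaged 1.42, 1.29, 1.33 and 1.37 per long CDR3, against 0.872 to 0.993 in the others. At least 2 of these basic residues were found in 31.4% to 35.5% of long CDR3s and 14.3% to 18.9% of the others. Tyrosine averaged 3.85 and 4.16 per long CDR3 in the wild-type replicates and 3.76 and 3.77 in the Igll1-/- replicates.

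Between the genotypes, 9 of 20 amino acids (45%) did not overlap, each with an exact permutation p of 0.333 and a Benjamini-Hochberg value of 0.741. Random labels of 2 libraries against 2 would give about 33.3%, and percentages of residues are not independent of each other. Leucine was higher in the Igll1-/- libraries, at 3.70% and 4.13% of residues against 2.63% and 2.33%. Tyrosine was lower, at 23.0% and 22.9% against 23.8% and 25.5%, and aspartate was lower as given above. Cysteine, threonine and tryptophan were also higher, and glutamate, glycine and serine lower. Mean hydropathy on the Kyte-Doolittle scale was -0.588 and -0.573 for the wild-type replicates, below the -0.439 and -0.472 of the Igll1-/- replicates. The same order was seen in other productive CDR3s, at -0.665 and -0.679 against -0.579 and -0.543. Aspartate, glutamate, glycine, leucine and threonine also kept the genotypes apart in the other CDR3s, in the same direction. Alanine, isoleucine, lysine, methionine and valine kept them apart in the other CDR3s but not in the long ones.

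**Figure D3:**
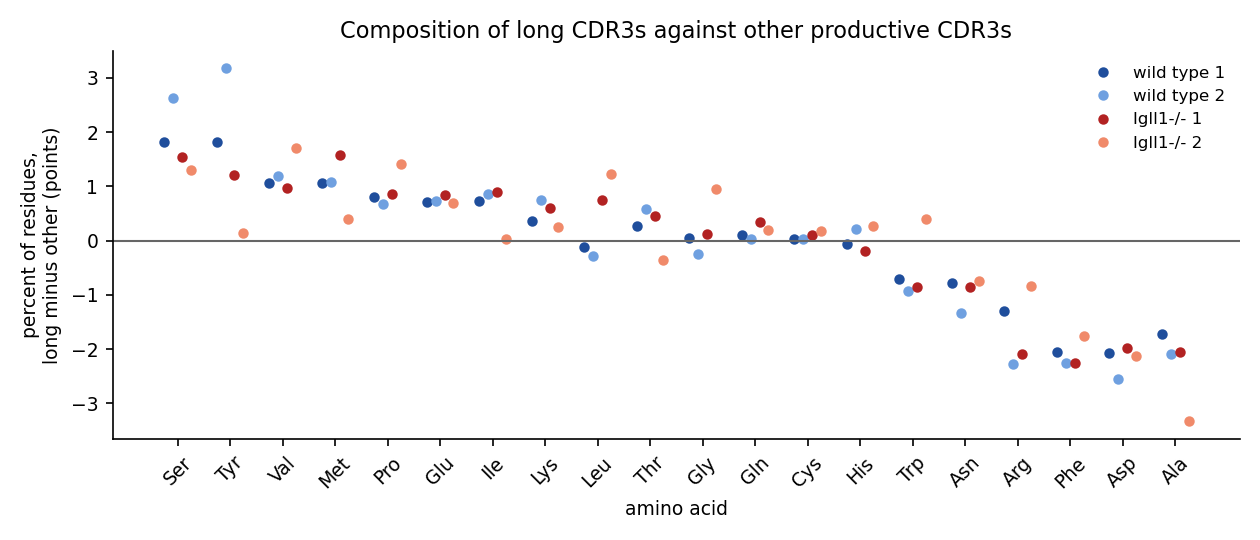
Percent of residues in long CDR3s minus that in other productive CDR3s, in points, for each amino acid and library. Serine, tyrosine and valine lie above 0 in all 4 libraries, alanine, aspartate, phenylalanine and arginine below it, and leucine lies above 0 only in the Igll1-/- libraries.

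Among V genes, those of the IGHV2 family (Q52) stood far above the rest. The family held 4.86% and 5.22% of long clonotypes in the wild-type replicates and 8.97% and 6.67% in the Igll1-/- replicates, against 0.322% to 0.523% of the others. Seen from the family, 193 of 386 productive IGHV2 clonotypes of wild-type replicate 1 had a long CDR3, as did 56.3%, 58.9% and 56.7% of those of the other 3 libraries. The Igll1-/- libraries lay above the wild-type libraries without overlap (exact permutation test, p = 0.333).

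The length of the amplified fragment moved with this result. The shortest sequence assigned was 151 nt in every library. The sequence outside the CDR3 was most often 110 nt in IGHV2 clonotypes (106 nt in Igll1-/- replicate 2), so that CDR3s under 14 residues (15 in that library) would fall below the shortest sequence. In IGHV2 clonotypes with over 120 nt outside the CDR3, a limit chosen after the values were seen, 10.3%, 11.4%, 16.3% and 5.26% had a long CDR3, and in those with 120 nt or less the shares were 67.0%, 73.7%, 65.7% and 74.4%. The high share of long CDR3s in IGHV2 was thus found in clonotypes with little sequence outside the CDR3, and what part the amplicon length had in it was not tested.

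IGHV8, with 126 nt outside the CDR3 and room for 9 residues or more, had the next highest share in each library, with 17.9%, 16.5%, 12.2% and 11.7% long. IGHV1, the largest family, with 145 nt, had 8.63%, 7.12%, 7.10% and 6.26% long. As a share of long clonotypes, both families were lower in the Igll1-/- libraries without overlap (exact permutation test, p = 0.333), IGHV8 at 1.49% and 0.975% against 2.79% and 2.93%, and IGHV1 at 42.3% and 40.3% against 53.9% and 43.2%. Among other clonotypes IGHV8 was lower without overlap as well, at 0.894% and 0.548% against 1.09% and 1.18%. IGHV7 was higher among long clonotypes of the Igll1-/- libraries, at 3.06% and 2.63% against 2.62% and 2.43%. Of 13 V families, IGHV1, IGHV2, IGHV7 and IGHV8 were the only ones without overlap. Random labels of 2 libraries against 2 would give about this share.

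**Figure D4:**
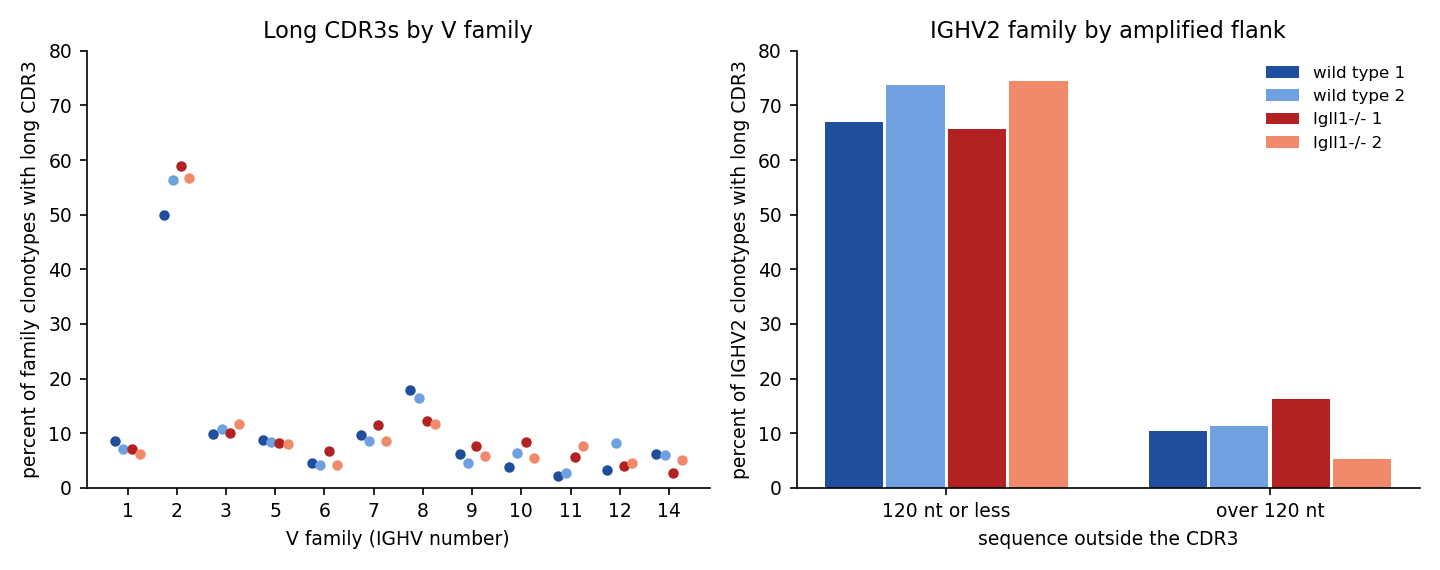
Percent of each V family's productive clonotypes with a long CDR3, by library (left), and the same for IGHV2 clonotypes split by the sequence outside the CDR3, in nt (right; 4 bars per class, 1 per library). IGHV2 stands above every other family plotted, and its long CDR3s lie mostly in clonotypes with 120 nt or less outside the CDR3.

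In long against other clonotypes, edgeR called 13 of 90 V genes (14.4%), 10 higher (11.1%) and 3 lower (3.33%). The 5 largest rises were all of IGHV2. IGHV2-9-2 rose by 4.77 on the log2 scale (SE 0.27), IGHV2-3 by 4.38 (SE 0.16), IGHV2-6-7 by 4.03 (SE 0.26), IGHV2-6 by 3.30 (SE 0.38) and IGHV2-2 by 3.21 (SE 0.18). The other 5, outside the naming rule, were IGHV7-4, IGHV8-12, IGHV8-8, IGHV1-81 and IGHV3-6, with log2 fold changes of 1.35, 1.31, 1.08, 0.75 and 0.63. IGHV1S45 (-1.34), IGHV1-15 (-0.91) and IGHV6-3 (-0.80) were lower. Without Igll1-/- replicate 2, 6 V genes were called, the 5 IGHV2 genes and IGHV8-12, and without wild-type replicate 1 there were 7. TMM called 12 higher and 10 lower, and DESeq2 10 higher and 12 lower.

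The V genes with the most long clonotypes were those that are common in these libraries. IGHV5-17 had 825, IGHV5-4 had 774, IGHV1-64 had 433, IGHV1-19 had 417 and IGHV1-81 had 400. Of the IGHV5-17 clonotypes, 8.11% and 7.64% were long in the wild-type replicates and 5.89% and 8.39% in the Igll1-/- replicates, close to the share over all V genes. Of the IGHV1-81 clonotypes, 14.6%, 10.02%, 15.4% and 8.86% were long.

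The phosphatidylcholine-binding V genes were mostly found with shorter CDR3s, as were productive clonotypes in total, of which 7.81%, 7.36%, 7.73% and 6.94% were long. IGHV12-3 clonotypes most often had 12 residues, and 3.11% and 8.33% of them were long in the wild-type replicates and 3.87% and 4.54% in the Igll1-/- replicates (76, 173, 46 and 96 clonotypes). IGHV11-2 was long in 2.06%, 2.71%, 5.02% and 8.69% of its clonotypes (29, 58, 12 and 43 clonotypes). IGHV12-3 in wild-type replicate 2 and IGHV11-2 in Igll1-/- replicate 2 lay above the total share of their library, and the rest lay below it. Both Igll1-/- values lay above both wild-type values for IGHV11-2, but the difference did not pass the test (edgeR interaction, log2 fold change 1.71, adjusted p = 0.446). Against other clonotypes, neither gene was called, with log2 fold changes of -0.70 for IGHV12-3 (edgeR adjusted p = 0.0891) and -1.01 for IGHV11-2 (edgeR adjusted p = 0.0909). With each CDR3 and J gene counted once, both were called lower, at -1.07 (edgeR adjusted p = 0.0114) and -1.53 (edgeR adjusted p = 0.0403).

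In wild-type replicate 2, where the IGHV12-3 share was highest, many of its long clonotypes lay close to 1 clone. Of its 69 IGHV12-3 clonotypes with IGHJ1 and 16 residues, 65 lay within 3 residues of a clone with 336 reads. In wild-type replicate 1, 22 of 26 lay within 3 residues of a clone with 88 reads. Both clones joined IGHD1-1, with YGSS and the whole IGHJ1 end YWYFDV. Over the 4 libraries, 43, 108, 15 and 33 of the long IGHV12-3 clonotypes carried YGSS.

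Between the genotypes, no V gene of the long clonotypes passed the test. Of 57 V genes, edgeR called 0 (0%), with 7 at an unadjusted p under 0.05 and a smallest adjusted p of 0.310, and DESeq2 called 0, with 1 unadjusted. The difference in the long share per V gene, tested as an interaction over 90 genes, also gave 0 calls (0%) with edgeR, with 9 unadjusted, and 0 with DESeq2, with 2 unadjusted. V use of the 2 wild-type libraries differed by 22.1% of clonotypes and that of the 2 Igll1-/- libraries by 24.1%, while pairs across genotypes differed by 22.7% to 25%.

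The libraries of the genotypes did not overlap for 17 of the 57 V genes (29.8%). Random labels of 2 libraries against 2 would give about this share. Several of the V genes with the largest differences held groups of near-identical clonotypes. IGHV1-36 was 1.01% and 0.939% of long clonotypes in the wild-type replicates and 1.87% and 2.27% in the Igll1-/- replicates (40, 32, 44 and 86 clonotypes; log2 fold change 1.09, SE 0.64, edgeR adjusted p = 0.481). Of these, 45 in Igll1-/- replicate 2 lay within 3 residues of its 438-read clone, and 26 in Igll1-/- replicate 1 within 3 residues of a 239-read clone of 15 residues. IGHV5-12 was 2.21%, 2.38%, 2.42% and 3.69%, and 31 of its clonotypes in Igll1-/- replicate 2 lay within 3 residues of a 210-read clone. IGHV2-2 was 0.629%, 0.616%, 1.40% and 1.03%, with 20 and 18 clonotypes of the Igll1-/- replicates near clones of 880 and 984 reads.

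Lower in the Igll1-/- libraries were IGHV1-5, IGHV1-12 and IGHV1-39. IGHV1-5 was 0.906% and 3.64% of long clonotypes in the wild-type replicates and 0.892% and 0.843% in the Igll1-/- replicates, so that only wild-type replicate 2 stood apart. IGHV1-12 was 1.33%, 2.73%, 0.552% and 0.922%, and 43 of its 93 long clonotypes in wild-type replicate 2 lay within 3 residues of a 458-read clone. IGHV1-39 was 2.37%, 1.79%, 0.765% and 1.16%. None of the 3 passed the test, with edgeR adjusted p-values of 0.310, 0.310 and 0.481.

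Long clonotypes were mostly small. One read was all that was seen of 74.7% and 77.9% of them in the wild-type replicates and 75.9% and 74.3% in the Igll1-/- replicates, above the 69.3%, 72.8%, 71.8% and 66.9% of other clonotypes in each library (5.51 points ± 1.38, SD over 4 libraries; exact sign-flip permutation test, p = 0.125). The mean size was 2.11 and 2.79 reads for the wild-type replicates and 4.45 and 3.96 reads for the Igll1-/- replicates. Other clonotypes had the same genotype order without overlap, at 4.21 and 4.46 reads against 5.69 and 4.90.

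Large long clones were found more often in the Igll1-/- libraries, without overlap between the genotypes (exact permutation test, p = 0.333). Clonotypes of 100 or more reads with a long CDR3 numbered 2 and 3 in the wild-type replicates and 14 and 22 in the Igll1-/- replicates. Of all productive clonotypes of that size they were 1.504% and 1.72% for the wild-type replicates, against 8.05% and 6.88% for the Igll1-/- replicates. Among single-read clonotypes the long share was 8.36%, 7.84%, 8.14% and 7.65%, with no such gap between genotypes. Clonotypes of 100 or more reads were 0.0503% and 0.0880% of long clonotypes in the wild-type replicates and 0.595% and 0.580% in the Igll1-/- replicates. Other clonotypes had the same order without overlap, with a smaller gap, at 0.279% and 0.399% against 0.570% and 0.585%.

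The 10 largest long clonotypes held 9.51% and 20.9% of the long reads in the wild-type replicates and 39.9% and 29.3% in the Igll1-/- replicates. The difference of 19.4 points had no overlap between the genotypes (exact permutation test, p = 0.333). It ranged from 13.7 to 25.1 points when 1 library at a time was left out.

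**Figure D5:**
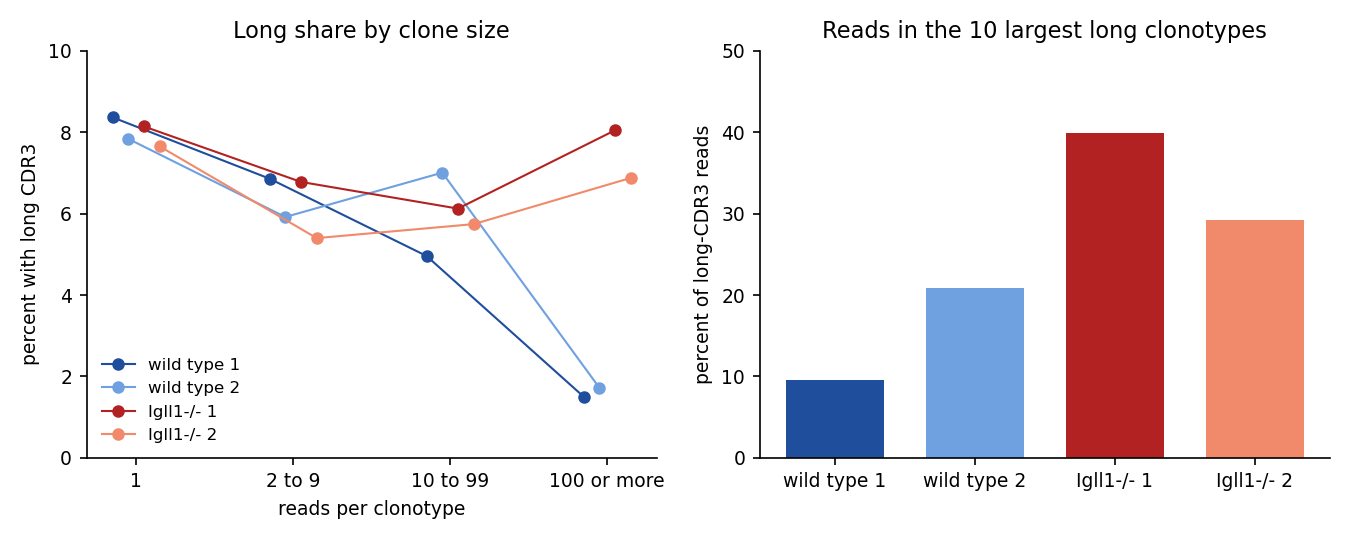
Percent of productive clonotypes with a long CDR3 in classes of reads per clonotype, 1 line per library (left), and percent of long-CDR3 reads held by the 10 largest long clonotypes of each library (right). The libraries lie together at 1 read, while at 100 or more reads the wild-type points lie at 1.504% and 1.72% and those of Igll1-/- at 8.05% and 6.88%.

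The largest long clone of each library joined IGHD1-1, and those of wild-type replicate 2 and Igll1-/- replicate 1 used an IGHV2 gene. In wild-type replicate 1 the largest joined IGHV1-12, IGHD1-1 and IGHJ2 in 15 residues, with TTV and YFDY, and had 173 reads. In wild-type replicate 2 the largest, listed as IGHV2-6 or IGHV2-6-4, joined IGHD1-1 and IGHJ4 in 17 residues with YGSS and had 787 reads. In Igll1-/- replicate 1 the largest joined IGHV2-2, IGHD1-1 and IGHJ4 in 15 residues with YGSS and YYAMDY and had 880 reads.

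In Igll1-/- replicate 2 the largest joined IGHV1-55, IGHD1-1 and IGHJ1 in 15 residues with YWYFDV and had 1014 reads, followed by a clone of IGHV2-2, IGHD1-1 and IGHJ4 in 17 residues with YYAMDY and 984 reads. The single largest long clone differed in V gene between all libraries, but clones below it could match. The IGHV1-12 clone of wild-type replicate 1 was also the 2nd largest of wild-type replicate 2, with 458 reads. An IGHV12-3, IGHD1-1 and IGHJ1 clone was the 3rd largest of both, with 88 and 336 reads. A 524-read clone of Igll1-/- replicate 1 and a 519-read clone of Igll1-/- replicate 2 both joined IGHV5-17, IGHD1-1 and IGHJ2. Both had 15 residues with TTV, but their CDR3s differed. Some large clones were listed with V genes that matched them poorly, such as a 560-read IGHV2-4 clone of Igll1-/- replicate 1 with 91.0% identity and a 519-read IGHV5-17 clone of Igll1-/- replicate 2 with 90.0%. V identity was 100% in 44.4%, 42.9%, 41.2% and 36.2% of long clonotypes, close to the 44.2%, 44.7%, 41.4% and 37.6% of the others.

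Long CDR3s were mostly private to 1 library, as were the other productive CDR3s, with 118012 of 137245 combinations (86.0%) in 1 library. Of 11866 distinct combinations of long CDR3, V listing and J gene, 10831 (91.3%) were found in 1 library, 774 in 2, 208 in 3 and 53 in all 4. The wild-type replicates shared 362, which was 9.21% and 10.9% of each list, and the Igll1-/- replicates shared 191, which was 8.34% and 5.19%. Across genotypes the libraries shared 136 to 464, the most between wild-type replicate 1 and Igll1-/- replicate 2. Counted from 1 read, pairs of the same genotype thus lay within the range of pairs across genotypes. At 10 or more reads the wild-type pair shared 6 (5.08% and 3.53% of each list). The Igll1-/- pair then shared 1, and pairs across genotypes shared 0 or 1.

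Among those found in all 4 libraries, the pair with the most reads was large in both wild-type libraries and small in both Igll1-/- libraries. The IGHV1-12 and IGHJ2 clone had 173 and 467 reads in the wild-type replicates and 2 and 1 in the Igll1-/- replicates. An IGHV12-3 and IGHJ1 clone of 16 residues had 89 and 338 reads in the wild-type and 7 and 2 in the Igll1-/- replicates. An IGHV5-12 and IGHJ1 clone of 15 residues with YGSS followed, with 5, 2, 6 and 218 reads, large in Igll1-/- replicate 2 alone.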

How the data were processed

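Per the labels and the study's methods, the authors amplified rearranged Igh from genomic DNA of sorted B-1a cells, sequenced the products on an Illumina instrument and assigned genes and CDR3s with IMGT/High-V-QUEST. The deposited tables list 1 clonotype per row, with its read count, its V, D and J genes, functionality, CDR3 residues and V identity in percent. CDR3s are listed without the flanking C and W. The members and the gene lists were chosen with earlier results of these data known.

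Clonotypes were counted per V or D gene and library, and those with several V genes stayed in the total but counted to no gene. Genes reaching 10 clonotypes in 2 or more columns were tested with edgeR 4.0.16 (R 4.3.3) quasi-likelihood F tests, with class totals as library size, Benjamini-Hochberg adjustment and a threshold of 0.05. Long against other clonotypes was fitted over 8 columns with library as a block. Exact permutation and sign-flip tests over libraries used Python 3.11.15 and scipy 1.17.1. DESeq2 1.42.0 was an alternative. On simulated data with 4-fold changes in V genes, 89.3% were recovered between genotypes and 89.4% between classes, but 38.8% in the interaction. The simulated spread between libraries was a squared coefficient of variation of 0.05. In the real genotype fit, SEs on the log2 scale ran from 0.50 (IGHV5-17) to 0.85 (IGHV5-12-2). The recovered shares are therefore not the power of the tests on these libraries.

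Named V genes were IGHV12-3, IGHV11-2, the 5 with the most long clonotypes, the 5 largest called changes in each direction and up to 3 in each direction with the largest genotype difference without overlap. Named D genes were the most frequent and the largest called changes. Alternatives were weighting by reads, read minimums of 2 and 10, merging of near-identical clonotypes, limits of 14 and 16 residues, other scalings, no filter, trimmed CDR3 ends and leaving out each library. Chosen after seeing the data were leaving out CDR3s of 25 or more residues, leaving out IGHV2 and counting each CDR3 and J gene once. Igk tables were not used. A count of 3 clonotypes was 0.0755% to 0.127% of the long clonotypes of a library.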

Additional observations from a re-analysis of the deposited data

Results flagged for a closer look

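Leucine in long against other CDR3s moved in opposite directions in the genotypes. In percent of residues, long minus other was -0.111 and -0.276 in the wild-type replicates and 0.755 and 1.23 in the Igll1-/- replicates, so that the genotypes differed by 1.19 points. The difference was not tested. With each CDR3 and J gene counted once, the 4 values were -0.365, -0.270, 0.239 and 0.0925. Some groups of related clonotypes in both Igll1-/- libraries held much leucine, and others held little. In Igll1-/- replicate 1, 67 long clonotypes of IGHV1-66, IGHJ2 and 16 residues lay within 3 residues of a 537-read clone and held 12.9% leucine. Groups of 26 IGHV1-36, 20 IGHV2-2 and 17 IGHV2-3 clonotypes of 15 residues there held none, and 17 of IGHV2-3 with 19 residues held 0.310%. In Igll1-/- replicate 2, where the gap was larger, 45 IGHV1-36 clonotypes held 5.38%, 34 listed as IGHV1-50 or IGHV1-55 held 6.86% and 31 of IGHV5-12 held 5.81%, while 28 of IGHV5-17, IGHJ1 and 16 residues held none. Among the wild-type groups, 65 IGHV12-3 clonotypes of replicate 2 held 5.10% and 43 of IGHV1-12 held 0.465%. The part of these groups in the difference was not tested.

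The summed share of glycine, alanine and serine showed the opposite pattern. Long minus other was 0.156 and 0.292 points in the wild-type replicates and -0.389 and -1.06 in the Igll1-/- replicates, a difference of -0.949. This difference was not tested either. With each CDR3 and J gene counted once, the values were 0.183, 0.158, -0.226 and -0.844.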

How the results depend on the processing

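Long against other D use (17 of 22 called) gave 9 calls at 10 or more reads and otherwise stayed within 1.5 times. Long against other V use (13 of 90) gave 8 calls by reads, 5 at 10 or more reads, 21 with near-identical clonotypes merged, 20 with a limit of 14 residues, 22 with TMM, 22 with DESeq2, 20 with each CDR3 and J gene counted once, and 6 to 16 with 1 library left out. With the replicate number as a block it gave 9 calls, and the block changed no other count of calls by over 1.5 times. The labels do not say that a number marks anything shared, and the correlation of 0.20 between deviations of same-numbered libraries, over 57 V genes and only 2 pairs, does not settle it.

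Between genotypes, where no V or D gene was called, weighting by reads gave 2 V genes, 1 D gene and 4 V genes in the interaction, a limit of 14 residues gave 3 in the interaction, and a limit of 16 gave 2 D genes. With 1 library left out, these 3 counts were 0 throughout. The V fit at 10 or more reads could not be made, since no gene passed the filter. The long share, lower in Igll1-/- by 0.249 points, turned to 1.52 by reads, 0.384 at 10 or more reads and -0.645 to 0.146 with 1 library left out.

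Genotype differences of single J genes changed sign often. IGHJ1 gave -2.79 points with a limit of 16, -2.35 with a limit of 14, -2.08 with each CDR3 counted once and -5.28 to 6.53 with 1 library left out. IGHJ2 gave 2.25 with a limit of 16, 0.536 counted once and -3.71 to 0.898 with 1 library left out. IGHJ3 gave 0.203 merged, 5.17 with a limit of 16, 1.74 with a limit of 14, 1.54 counted once and -3.10 to 2.56 with 1 library left out. IGHJ4 gave -2.56 at 10 or more reads, -4.65 with a limit of 16 and -2.69 to 4.80 with 1 library left out. The single-read share gave 0.640 with a limit of 16, 3.23 counted once and -2.83 to 0.449 with 1 library left out.

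In long against other, IGHJ1 turned to -7.44 points by reads. Glycine turned to -0.772 by reads, -2.05 with CDR3 ends trimmed, -0.342 counted once and -0.0223 to 0.378 with 1 library left out. On the log2 scale, IGHV12-3 turned to 0.12 merged, IGHV1-19 was called lower (-0.50) and IGHV1S45 no longer called (-0.39) when counted once, and IGHV1-64 turned to -0.0911 by reads and -0.50 at 10 or more reads. IGHV5-17, near 0, turned to -0.0701 at 2 or more reads, -0.0118 with a limit of 16, -0.0296 with TMM, -0.0515 with DESeq2, -0.107 counted once and -0.0945 to 0.140 with 1 library left out. IGHD2-3 turned to 0.57 with TMM and 1.24 with DESeq2, IGHD2-1 to 0.52 and 1.20, and IGHD2-9 to -0.23 at 2 or more reads. The causes were not tested. IGHJ4 and tyrosine in long against other, and the reads in the 10 largest clones between genotypes, kept their direction under every alternative run.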
